A study of Mus musculus with 12 samples.

Results

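The H3K27ac landscape of mouse induced pluripotent stem cells (iPSCs) was set against that of unedited mouse embryonic stem cells (ESCs). Of the 12 chromatin immunoprecipitation sequencing (ChIP-seq) samples of the series, the 4 that enter this comparison are 2 H3K27ac replicates of the ESCs at 0 h and 2 H3K27ac replicates of the iPSCs. They were chosen by their labels, and each pair is represented by 1 deposited list. The ESC list holds 49460 bins of 10 kb, of which 26812 carry an H3K27ac value and 22648 carry none. The iPSC list holds 55466 H3K27ac peaks, given as positions without height. The series as a whole follows the role of KLF4 in enhancer organization, and a list of 21563 iPSC KLF4 peaks from 2 further replicates was used here as context.

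The ESCs were of the V6.5 line, which is kept on irradiated feeder cells in serum with leukaemia inhibitory factor (LIF). They carried a lentiviral vector with a doxycycline-inducible Cas9 and guides that the labels give as against KLF4 only or against KLF2, KLF4 and KLF5 together. At 0 h no doxycycline had been given, so these cells carry the vector and guides without induced Cas9. The lines were picked as clones, which limits how far they stand for V6.5 cells in general. For the iPSCs the labels give neither the cells of origin nor the reprogramming method, and no vector or guide of their own. The labels put both cell types in 2i, which adds MEK and GSK3 inhibitors to the culture. H3K27ac was precipitated with the same antibody in both and sequenced as single reads of 50 bases. The replicates are described as biological, but neither list holds a value per replicate, so no difference between the cell types could be tested. Intervals given with shares are exact (Clopper-Pearson) 95% intervals. They cover counting error only, and the read depth behind both lists is unknown.

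H3K27ac is acetylation of lysine 27 on histone H3, laid down by the acetyltransferases p300 and CBP at active enhancers and promoters. In pluripotent cells, broad and dense stretches of the mark lie at genes of the transcription factor network around OCT4, SOX2 and NANOG. ESRRB, KLF4, TFCP2L1 and TBX3 extend this network in the naive state, which 2i holds. A gene whose surroundings carry the mark in both cell types has acetylated chromatin in or near it in both. That chromatin may belong to a neighbouring gene, and it says nothing of the level of the transcript.

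The sequences below belong to the loci on which the results turn, and all come from the RefSeq tables for GRCm38.p6. The microRNA cluster of chromosome 7 (chr7:3218626-3220841) lay in the locus whose lower percentile of the 2 measures was the highest of all genes. Shown are mature 3p arms, among those read here, that share seed letters between this cluster and the miR-302 cluster (chr3:127545228-127545807). The latter is a second pluripotency cluster that was weakly marked. No 3p arm of miR-302a or miR-292a was among those read, so the set may be incomplete. Capitals mark the seed, bases 2 to 8.
mmu-miR-294-3p: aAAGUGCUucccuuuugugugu
mmu-miR-295-3p: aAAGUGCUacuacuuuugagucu
mmu-miR-302b-3p: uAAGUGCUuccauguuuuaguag
mmu-miR-302d-3p: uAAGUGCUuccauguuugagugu
mmu-miR-290a-3p: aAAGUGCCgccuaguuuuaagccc
mmu-miR-291b-3p: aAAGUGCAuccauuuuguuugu
The first 4 share the seed AAGUGCU across the clusters of chromosomes 7 and 3. Over all mature microRNAs read, 5 carry this seed. The other 2 printed arms differ from it at the last seed base. Further 3p arms, such as miR-293-3p with GUGCCGC, miR-302c-3p with AGUGCUU and miR-367-3p with AUUGCAC, have other seeds.

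The 250 bases before the start sites of Nanog (chr6:122707239-122707488, plus strand) and Klf9 (chr19:23140976-23141225, plus strand) are shown as promoters of genes high in both cell types. That of Ddx43 (chr9:78395527-78395776, plus strand) stands for the few genes high in ESCs without an iPSC peak. Capitals mark each CG, which reads the same on both strands.
Nanog: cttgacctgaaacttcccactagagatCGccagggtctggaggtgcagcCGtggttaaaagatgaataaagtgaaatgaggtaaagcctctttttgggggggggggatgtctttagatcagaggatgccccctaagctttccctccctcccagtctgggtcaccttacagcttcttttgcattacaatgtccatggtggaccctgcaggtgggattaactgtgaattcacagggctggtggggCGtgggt
Klf9: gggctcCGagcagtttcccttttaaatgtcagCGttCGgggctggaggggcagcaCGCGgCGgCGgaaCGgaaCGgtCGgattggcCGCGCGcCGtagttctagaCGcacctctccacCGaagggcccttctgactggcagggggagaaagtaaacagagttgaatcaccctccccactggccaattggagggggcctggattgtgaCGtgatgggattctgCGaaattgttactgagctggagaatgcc
Ddx43: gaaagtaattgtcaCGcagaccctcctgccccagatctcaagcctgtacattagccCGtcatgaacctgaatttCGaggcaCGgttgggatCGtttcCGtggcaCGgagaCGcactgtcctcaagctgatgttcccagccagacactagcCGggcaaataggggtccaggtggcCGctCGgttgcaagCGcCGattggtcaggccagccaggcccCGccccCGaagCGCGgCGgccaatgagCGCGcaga
Nanog had 3 CG in this window, Klf9 18 and Ddx43 20, against a median of 6 over 32619 promoters of the same length, of which 92.2% held at least 1. An iPSC H3K27ac peak lay on the Nanog and Klf9 windows and not on that of Ddx43.

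The promoters of Rex2 (chr4:147021600-147021849, plus strand) and Zfp600 (chr4:146156577-146156826, plus strand) follow. They come from genes with broad iPSC peaks in bins that the ESC list does not hold. Both are zinc-finger genes of a cluster on chromosome 4. Capitals mark the bases at which the pair differs.
Rex2: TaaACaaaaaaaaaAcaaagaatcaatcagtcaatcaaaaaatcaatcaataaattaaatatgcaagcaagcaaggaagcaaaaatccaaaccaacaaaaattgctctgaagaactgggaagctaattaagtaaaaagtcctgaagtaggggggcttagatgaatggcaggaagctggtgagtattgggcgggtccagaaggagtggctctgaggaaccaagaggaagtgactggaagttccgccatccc
Zfp600: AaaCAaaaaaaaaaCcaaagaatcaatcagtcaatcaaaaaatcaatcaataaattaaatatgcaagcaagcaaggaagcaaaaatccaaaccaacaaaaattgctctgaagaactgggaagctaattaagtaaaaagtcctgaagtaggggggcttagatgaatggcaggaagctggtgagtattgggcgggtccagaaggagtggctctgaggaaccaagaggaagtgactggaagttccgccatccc
The windows are identical at 246 of 250 bases (98.4%). Among the zinc-finger promoters of this class on chromosome 4, compared without gaps, this was the closest pair. Zfp979 and Zfp980 were identical at 83.2% of bases, and the other pairs at 25.6% to 42.4%. Single reads of 50 bases cannot always be placed between windows as alike as those of Rex2 and Zfp600.

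Most ESC bins with an H3K27ac value were also acetylated in iPSCs. An iPSC peak lay in 73.6% (73.1 to 74.1) of the valued bins, and peaks covered a mean of 1202 bp of each 10 kb. Among bins listed in ESCs without a value the share was 3.16% (2.94 to 3.40), with a mean of 11.1 bp. Among the 213526 bins of the same grid that the ESC list does not hold, it was 3.35% (3.27 to 3.42), with 22.2 bp. A bin listed without a value was therefore no more often marked in iPSCs than a bin not listed. Over chromosomes 1 to 19, the share for valued bins ranged from 68.0% on chromosome 18 to 77.2% on chromosome 11. Seen from the iPSC side, 81.5% (81.2 to 81.8) of the peaks met a valued bin, 1.54% only a listed bin without a value, and the other 9410 no listed bin.

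KLF4 binding in iPSCs went with the iPSC mark, both in valued bins and in bins not listed in ESCs. Of valued bins with an iPSC H3K27ac peak, 45.8% (45.1 to 46.5) held an iPSC KLF4 peak, against 16.2% (15.4 to 17.1) of the 7082 valued bins without one. In bins not listed in ESCs the shares were 25.9% with an iPSC H3K27ac peak and 2.11% without.

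iPSC acetylation rose with the ESC value. From the lowest to the highest decile of the value, the share of bins with an iPSC peak went from 34.1% (32.3 to 35.9) to 92.5% (91.4 to 93.5). The mean covered length went from 164 to 3171 bp, and the share with KLF4 from 19.2% to 59.0%. The share of bins with a peak was the same in deciles 9 and 10, while the covered length was 2308 bp in the former and 3171 bp in the latter. Over the 26812 valued bins, Spearman's rho between value and covered length was 0.611 and Pearson's r was 0.577. These are descriptions across bins, which share 1 library pair per axis, and neighbouring bins often share 1 value. The rank correlation ranged from 0.587 to 0.659 over chromosomes 1 to 19 and was 0.533 on chromosome X.

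The X chromosome stood apart from all others in ESC value and mean iPSC coverage, which touches the gene results below. The share of its valued bins with an iPSC peak, 68.6%, lay within the autosomal range of 68.0% to 77.2%. The median ESC value of its 678 valued bins was 7.44, against 4.35 to 4.76 on chromosomes 1 to 19. Its mean iPSC coverage was 864 bp, below the autosomal range of 1004 to 1356 bp. In decile 10 an iPSC peak lay in 85.1% (80.0 to 89.4) of 242 X-linked bins and in 93.2% (92.2 to 94.2) of 2439 autosomal bins, with means of 1588 and 3328 bp. KLF4 lay in 42.1% (35.9 to 48.6) and 60.7% (58.7 to 62.6) of them. Mean iPSC coverage of X-linked bins was below that of autosomal bins in every decile of the ESC value. The deciles were set over all chromosomes together, so X-linked bins gathered in the upper ones, with only 7 in decile 1. The iPSC list holds 1313 peaks on X and 36 on Y, and the ESC list holds no bin on Y.

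**Figure D1:**
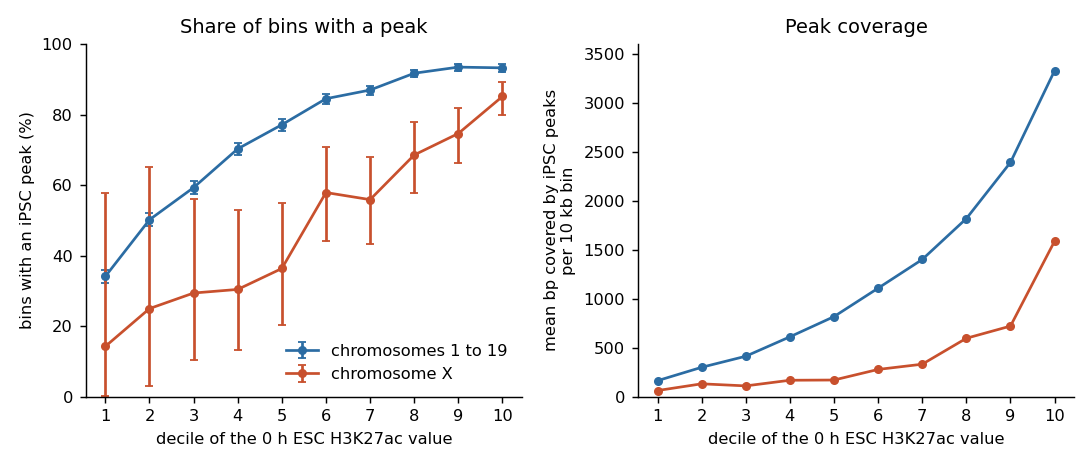
Share of valued ESC bins with an iPSC H3K27ac peak in percent (left, bars are exact 95% binomial intervals) and mean bp covered by iPSC peaks per 10 kb bin (right), by decile of the 0 h ESC value. Points are chromosomes 1 to 19 (blue) and chromosome X (orange); in decile 10 the shares are 93.2% and 85.1%, and the X curve lies below the autosomal curve in every decile.

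The mark in iPSCs was centred on the high ESC bins. Around bins of decile 10, mean coverage fell from 3171 bp in the bin to 2000 and 2059 bp in its neighbours and to 538 bp at 50 kb on the right. Around bins of the lowest decile it was 164 bp in the bin and 500 and 458 bp in the neighbours. Bins listed without a value showed a deeper dip, with 11.1 bp against 339 and 324 bp in the neighbours. The lowest ESC bins were thus less covered in iPSCs than the bins beside them.

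**Figure D2:**
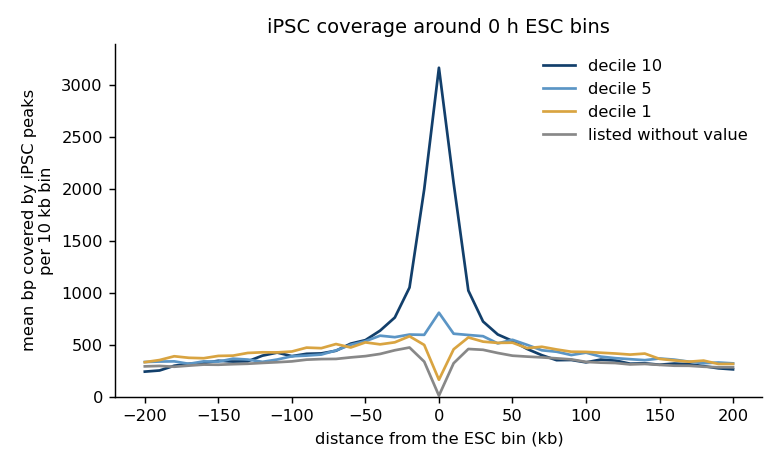
Mean bp covered by iPSC H3K27ac peaks per 10 kb bin (vertical axis) against distance in kb from 0 h ESC bins of 4 kinds: decile 10, decile 5 and decile 1 of the value, and listed without a value. Coverage peaks at 3171 bp on decile 10 bins and dips to 164 and 11.1 bp on the last 2 kinds.

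The deposited ESC list also repeats values over neighbouring bins, and the iPSC peaks followed these repeats. An iPSC peak crossed the border between 49.1% (47.6 to 50.6) of 4303 neighbouring bins of equal value, and between 8.29% (7.77 to 8.84) of 10479 neighbours of unequal value. Counted by runs of equal value, 74.2% (73.6 to 74.8) of 22509 runs held an iPSC peak. The share was 70.1% for runs of a single bin and 93.7% for longer runs. Longer stretches of valued bins were also more fully covered in iPSCs. Valued bins with no valued neighbour had a mean of 747 bp covered, and those in stretches of 10 or more bins had 2026 bp. The longest stretch, 26 bins on chromosome 4 with Rbbp4 and Yars among its genes, held an iPSC peak in 21 of its bins and was covered over 26.3% of its length.

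Column 4 of the ESC list is a whole number of at least 1 whose meaning is not stated, called the bin score here. iPSC coverage increased with it as well. Valued bins of score 1 held an iPSC peak in 61% (59.4 to 62.5) of 3811 cases and had a mean of 495 bp covered. Those of score 17 or more held one in 96.6% (94.7 to 98.0) of 531 cases and had 4351 bp. The score and the value were themselves related (Spearman's rho 0.318 over valued bins), so they were also separated. Among bins in deciles 1 to 3 of the value, mean coverage went only from 240 bp at score 1 to 347 bp in the 14 bins at 17 or more. In decile 10 it went from 928 to 5938 bp. Within deciles of the value, rho between score and covered length grew from 0.02 in the lowest to 0.61 in the highest. In bins without a value, the share with an iPSC peak was 2.30% at score 1 and 7.29% (2.98 to 14.4) at scores 9 to 16. A high score without a value was thus seldom met by an iPSC peak.

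**Figure D3:**
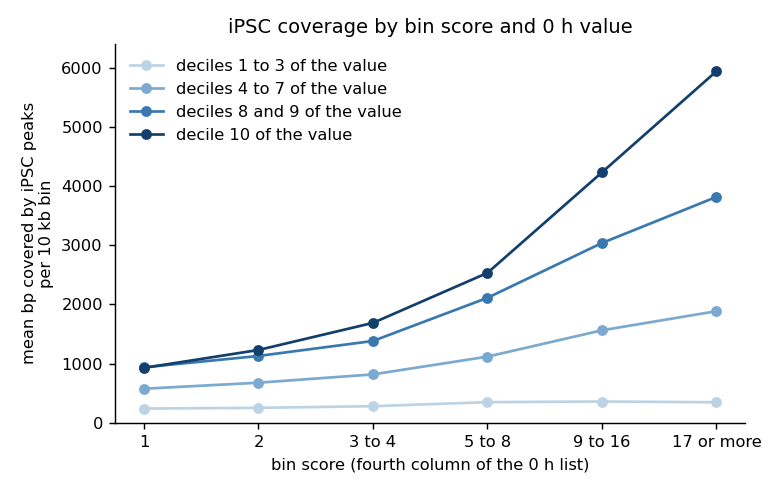
Mean bp covered by iPSC H3K27ac peaks per 10 kb bin (vertical axis) by class of the bin score of the 0 h ESC list (horizontal axis), with 1 line per group of deciles of the ESC value. The line of decile 10 climbs from 928 to 5938 bp, while that of deciles 1 to 3 stays between 240 and 359 bp.

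The broadest iPSC acetylation lay on high ESC bins. iPSC peaks covered 12 bins in full, and all 12 carried a value, from 9.79 to 18.1, and belonged to decile 10. Of 97 bins covered for 9 kb or more, 96 were valued and 87 belonged to decile 10. Among the nearest genes were Klf4, Dppa5a, a marker of undifferentiated cells, and Tfcp2l1, a transcription factor of the naive state. Others were Ulk1, a kinase that starts autophagy, Mybl2, a cell cycle transcription factor, and Cbfa2t2, a corepressor, with Ssr2, Usp48, Ubxn2a, Nlrp12 and Csnk1a1 nearest to further bins.

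Klf4, the factor after which the series is named, was marked at a distance in both cell types. The bin with the start of the gene (chr4:55530001-55540000) had a value of 7.32, a covered length of 4230 bp and 3 KLF4 peaks. A bin 47137 bp from the gene, past its other end (chr4:55470001-55480000) had a value of 17.3, a score of 26 and 2 KLF4 peaks, and was covered over all 10000 bp. Its 3 neighbours of the same value had 296, 6347 and 2399 bp covered. A bin between the 2 regions (chr4:55490001-55500000) was listed without a value and had no iPSC peak. The next 2 bins toward the gene were weakly marked, with values of 5.06 and 3.11 and covered lengths of 699 and 1106 bp.

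Per gene, the highest ESC value and the highest iPSC covered length were taken over the bins that the gene and 10 kb on each side touch. Over 21631 protein-coding genes of chromosomes 1 to 19 and X, 56.7% had a valued ESC bin and 64.0% an iPSC peak. Both were present at 11511 genes, only the value at 748, only the peak at 2323 and neither at 7049. The 748 genes had a median ESC value of 3.40, against 6.00 at the genes with both, and the 2323 had a median covered length of 595 bp, against 1634 bp. Genes marked by a single list were therefore weakly marked there. Spearman's rho between the measures was 0.827 over all genes and 0.646 over the 11511, across genes that share bins and are not replicates.

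Genes in the top 10.0% of a measure were called high: a value of at least 8.28 in ESCs (the next gene had 8.28 to 2 decimals) or at least 3524 bp in iPSCs (the next had 3522 bp). By these limits 1064 genes (4.92%) were high in both, and 49.2% of the 2164 genes high in ESCs were also high in iPSCs. Because neighbouring genes share bins, the 1064 genes stood for 820 distinct pairs of highest bins. In 524 of the genes the highest ESC bin was also the highest iPSC bin. A KLF4 peak lay in the bins of 96.1% of the genes high in both, against 57.3% of all genes. Only 9 genes (0.0416%) were high in ESCs without any iPSC peak, and 22 (0.102%) were high in iPSCs without any valued ESC bin. A KLF4 peak also lay in the bins of 20 of these 22 genes (90.9%), and of 1 of the 9. The classes were chosen by the iPSC mark, and iPSC KLF4 peaks went with that mark in single bins. The KLF4 shares of the classes are therefore not independent of how the genes were chosen.

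Genes high in both were ordered by the lower of their 2 percentiles, which put Nlrp12 (chr7:3218643-3249771) before Esrrb, although Esrrb had the higher ESC value. Nlrp12 encodes a cytosolic NOD-like receptor, and its window holds the miR-290 to miR-295 cluster printed above. The value of 18.1 spanned the bins from 3200001 to 3230000. The first of these was covered over all 10000 bp in iPSCs, the second, with miR-290a, over 9940 bp and the third, with miR-294 and miR-295, over 3954 bp. The second bin held 4 KLF4 peaks. The miR-302 cluster, where miR-302b-3p and miR-302d-3p carry the shared seed among the arms read, had a value of 3.22. It had a covered length of 498 bp and no KLF4 peak. MicroRNA loci were taken up after values had been seen. Of 844 bins that hold the centre of a microRNA hairpin, 287 carried an ESC value, and 220 of these (76.7%) had an iPSC peak, against 73.6% of all valued bins. Another 40 bins had an iPSC peak and were not listed in ESCs. Mir130a had a value of 10.5 and 3436 bp, the Mir296 and Mir298 pair 9.27 and 4258 bp, and Mir17 with its cluster 6.33 and 1557 bp.

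Esrrb, an orphan nuclear receptor of the naive network, had the highest ESC value of all bins, 29.7 at chr12:86500001-86510000, where 9611 bp were covered in iPSCs. The 4 bins before it shared a value of 10.9 and were covered over 6740, 9942, 9680 and 9453 bp. Toward the other end of the gene, the first 2 bins of its window were not listed and held no iPSC peak. The most strongly marked stretch of Esrrb was thus the same part of the gene in both lists. Weaker valued ESC bins lay before it, and that at chr12:86430001-86440000 (value 3.31) held no iPSC peak. Dppa5a and its neighbour Ooep, an oocyte gene, shared a value of 16.3 and a covered length of 10000 bp. The other named loci high in both were Lax1 (value 15.1, covered length 9635 bp), Etl4 (14.5 and 9732 bp), Zbtb44 (14.7 and 9113 bp), Spats1 (14.1 and 9847 bp), Klf9 (15.7 and 8765 bp) and Ulk1 (13.6 and 10000 bp). Klf9, a relative of Klf4, held 10 KLF4 peaks.

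**Figure D4:**
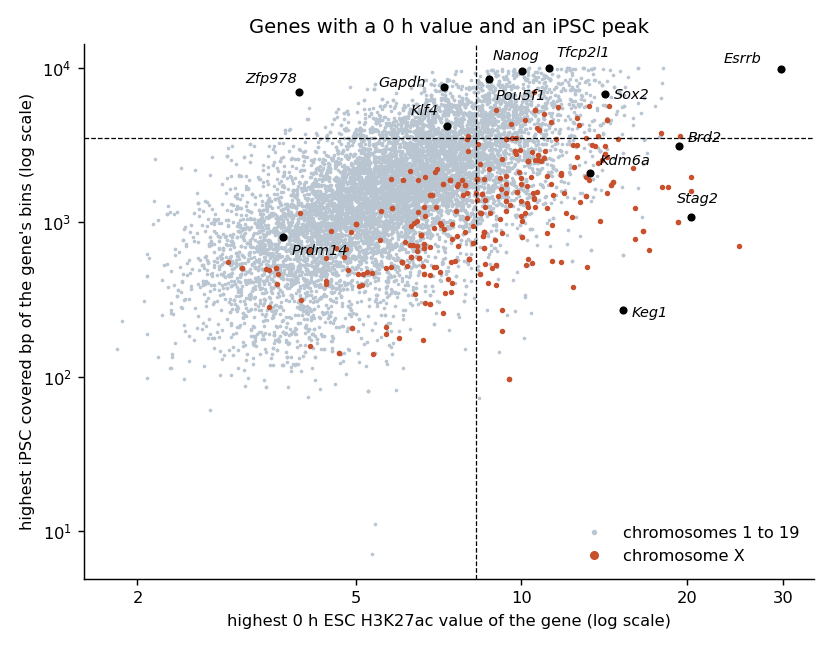
Highest 0 h ESC H3K27ac value (horizontal, log scale) against highest iPSC covered bp per 10 kb bin (vertical, log scale) for the 11511 genes with both, with chromosome X in orange and dashed lines at the limits of 8.28 and 3524 bp. Esrrb, Sox2 and Nanog lie in the upper right, and X-linked genes such as Stag2 (20.4 and 1079 bp) lie below autosomal genes of similar value.

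The labels of both cell types were matched by their markers. All 13 markers of pluripotent cells had both a value and a peak, with 10 high in ESCs, 11 high in iPSCs and 10 high in both. Of 13 fibroblast markers, which would show feeder cells or cells of origin, 5 had a value and 4 a peak. Col1a2, Thy1, Twist1, Twist2, Prrx1, Postn, Pdgfra and Lox had neither. Fn1, which encodes fibronectin, was high in both, with 9.53 and 6182 bp, and so was Loxl1, which is in the longer list of fibroblast genes and not among these 13. Of the 25 genes of that longer list, 6 had a value and 8 a peak. Zeb1, Fbn1 and Lum had iPSC peaks over 1264, 353 and 203 bp without a value, and 1 gene had a value without a peak. The summed highest values were 145 for the pluripotency markers and 25.8 for the fibroblast markers, and the summed covered lengths were 97868 and 8628 bp. Of 5 primitive endoderm markers, Sox17, Pdgfra and Foxa2 had neither, while Gata4 (2.45 and 702 bp) and Gata6 (4.38 and 748 bp) had both. Of 6 trophectoderm markers, Cdx2 and Elf5 had neither, 2 had a value and 4 a peak. Gata3 had 8.31 and 1792 bp, Krt8 3.09 and 1986 bp, and Krt18 and Eomes had iPSC peaks over 1986 and 327 bp without a value. Their part in the other results was not tested. A bulk list cannot tell a few cells of another type from a weak mark in all cells.

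Core pluripotency regulators were high in both lists. Of 19 genes, 12 were high in ESCs, 13 in iPSCs and 11 in both, and the median gene stood at percentile 95.6 in ESCs and 97.8 in iPSCs. Over all genes the median is at percentile 50.0. Percentiles rank all protein-coding genes, and genes without a value share percentile 21.7 and genes without a peak 18.0. Nanog had a value of 10.0 over 4 bins, which were covered over 5497, 9601, 5367 and 752 bp in iPSCs. Pou5f1, which encodes OCT4, had 8.73 over 3 bins, covered over 3264, 8578 and 1518 bp. Sox2 had 14.2 in 2 bins, covered over 2027 and 6816 bp. Each of the 3 genes had its highest iPSC bin inside the run of its highest ESC value.

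Fgf4, a growth factor gene controlled by OCT4 and SOX2, had 12.8 and 8642 bp, and the OCT4 partner gene Sall4 had 12.3 and 6323 bp. Trim28, a corepressor of retroviral elements, had 14.0 and 7783 bp, and Zscan10 had 12.4 and 5816 bp. Tdgf1, a NODAL co-receptor gene, had 9.79 and 9209 bp. Rif1 had 10.4 and 6905 bp, Jarid2 8.47 and 6651 bp, and Etv5, a target of FGF signalling, 10.5 and 8143 bp. At the other end, Lin28b had neither a value nor a peak, and Lin28a, a block to let-7 maturation, had 3.59 and 329 bp. Utf1 ranked higher in iPSCs (percentile 78.3) than in ESCs (50.5).

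Naive pluripotency regulators had 14 of 23 genes high in ESCs, 16 in iPSCs and 12 in both, with medians at percentiles 92.9 and 97.9. Beside Esrrb and Dppa5a, those high in both were Spp1 (12.8 and 6328 bp), Gdf3 (11.8 and 7128 bp), Tfcp2l1 (11.2 and 10000 bp), Tdh (11 and 7436 bp), Fbxo15 (10.1 and 6702 bp), Pecam1 (10.0 and 6016 bp), Tbx3 (9.23 and 9588 bp), Tet2 (8.94 and 7455 bp), Klf2 (8.86 and 9693 bp) and Zfp42 (8.33 and 8451 bp). Zfp42 encodes REX1, and Tet2 an enzyme that oxidizes methylated DNA. Klf4 fell short of the ESC limit with 7.32, and Klf5 of the iPSC limit, with 10.8 and 2187 bp. Prdm14, a repressor that guards the naive state, was weak in both, with at most 3.68 over 4 bins and at most 804 bp. Manba had an iPSC peak without an ESC value. Nr0b1 (value 7.93) and Gbx2 (3.10) had a value and no iPSC peak. Nr0b1, which encodes the X-linked DAX1, had no iPSC peak in any of the 3 bins of its window.

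Genes of the formative and primed states were less often high. Of 17, 2 were high in ESCs (Foxd3 and Nodal) and 2 in iPSCs (Nodal and Otx2), with medians at percentiles 49.0 and 45.6, near those of all genes. Nodal, a growth factor gene of the TGF-beta family, was high in both (9.43 and 8496 bp). Fgf5, Pou3f1, Sox3 and Sox4 had neither. Otx2, a head and epiblast transcription factor, stood at percentile 84.7 in ESCs and 95.1 in iPSCs.

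Most lineage lists other than trophectoderm had many members unmarked in both cell types. Neither a value nor a peak was found at 8 of 15 primitive endoderm genes, 7 of 12 mesendoderm genes, 8 of 15 neuroectoderm genes, 16 of 25 fibroblast genes and 13 of 16 two-cell genes, against 7049 of 21631 genes overall. Members high in both were Grik3 (10.4 and 6849 bp), a glutamate receptor gene, Loxl1 (12.1 and 9983 bp), a collagen crosslinking enzyme, and Fn1. Sparc and Tbx6 were high in iPSCs only by rank, with 5.98 and 5154 bp and 7.33 and 5145 bp. Of 14 trophectoderm genes only 2 had neither, and the medians were at percentiles 55.4 and 54.8. Gata3 was high in ESCs and Tead4 in iPSCs (4995 bp).

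LIF, Wnt and FGF are the signals that these media supply or block. Of 15 LIF and STAT3 genes, 4 were high in ESCs and 7 in iPSCs. Lifr, the LIF receptor, had 10.6 and 5645 bp, and the targets Pim1, Pim3 and Bcl3 had 9.76 and 4323 bp, 10.7 and 7467 bp, and 8.71 and 7472 bp. Socs3, the feedback inhibitor, stood at percentile 87.6 in ESCs and 98.9 in iPSCs, with 7.80 and 7628 bp. Junb and Fos ranked higher in iPSCs too, at percentiles 92.4 and 86.4 against 66.3 and 49.6 in ESCs. Of 20 Wnt genes, 3 were high in ESCs and 2 in iPSCs. Gsk3b, the kinase that 2i inhibits, was high in both (9.57 and 7350 bp). Tcf7l1, the repressor at the end of the pathway, had 12.1 and 3248 bp, and Axin2, a target, 11.2 and 1029 bp. Of 16 genes of FGF and ERK feedback, Fgf4 and Etv5 were high in both, Spry2 (4302 bp) and Fgfr1 (6484 bp) were high in iPSCs only by rank, and Fgfr2, Spry1 and Fosl1 had a value without an iPSC peak.

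Glycolysis genes ranked higher in iPSCs, by breadth, than in ESCs, by value. Of 16 glycolysis genes, 4 were high in ESCs and 10 in iPSCs, with medians at percentiles 82.6 and 94.1. Slc2a3, a glucose transporter, was the highest of them in both (13.2 and 9788 bp), and Hk2 (8.90 and 5722 bp) and Gpi1 (8.98 and 5446 bp) were high in both. Gapdh had 7.22 and 7534 bp, Slc2a1 5.24 and 7299 bp, and Pkm, which encodes pyruvate kinase, 6.21 and 4934 bp. Of 30 cytosolic ribosomal protein genes, 12 were high in ESCs and 16 in iPSCs but only 5 in both, among them Rps14, Rps19 and Rpl4. All 30 had both a value and a peak. Their medians were at percentiles 86.8 in ESCs and 90.2 in iPSCs, but 94.5 and 93.3, in the opposite order, with means over the bins of a gene. Their percentiles spread little, with an SD of 7.03 in ESCs and 8.04 in iPSCs.

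Among chromatin regulators, the ESC and iPSC medians lay furthest apart at CTCF, cohesin and Mediator genes, but not under the alternative settings. Of 20 CTCF, cohesin and Mediator genes, 8 were high in ESCs and 2 in iPSCs, with medians at percentiles 86.6 and 79.0. On chromosomes 1 to 19 the medians were 86.0 and 82.0, against 78.8 and 82.9 for enzymes of DNA methylation. Without flanks they were 83.3 and 81.3, against 79.0 and 87.6. Rad21, the cohesin kleisin, had 13.3 and 3993 bp and was high in both lists. Brd2 had a value of 19.4 with 3147 bp, and Stag1 12.4 with 3413 bp. Stag2, Smc1a and Med12 of this list are X-linked. Of 16 BAF remodelling genes, 5 were high in ESCs and 2 in iPSCs, and Arid2 in both (11.1 and 3763 bp), with medians at percentiles 84.2 and 85.3. Polycomb genes had 7 of 16 high in ESCs, 6 in iPSCs and 5 in both, namely Suz12 (12.5 and 6142 bp), Eed (11 and 6648 bp), Mtf2 (9.44 and 9554 bp), Cbx7 (9.23 and 7734 bp) and Jarid2, with medians at percentiles 83.1 and 86.6. Among enzymes of DNA methylation, Tet1 (11.6 and 9879 bp), Tet2 and Zfp57 (12.3 and 8553 bp), a guardian of imprints, were high in both. The de novo methyltransferase genes Dnmt3a and Dnmt3b were low, with values of 3.47 and 3.41 and covered lengths of 188 and 369 bp. Of the 8 genes of microRNA processing, Ago1 was high in both (9.59 and 4278 bp) and Ago2 in ESCs alone by rank (9.95 and 3133 bp).

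The KLF and SP family holds the 3 factors that the guides of the ESC lines are directed against, KLF2, KLF4 and KLF5. Of 26 members, 9 were high in ESCs, 10 in iPSCs and 4 in both, which were Klf2, Klf9, Klf10 (8.61 and 3941 bp) and Klf15 (8.29 and 3904 bp). Klf8, Klf6, Klf5, Klf11 and Klf7 were high in ESCs by rank and not in iPSCs. Klf3, Klf13, Klf4, Sp1, Sp2 and Sp3 were high in iPSCs and not in ESCs. Klf14, Klf17, Sp5, Sp8 and Sp9 had neither, and Klf12 had a value of 3.89 and no iPSC peak.

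Imprinted genes were mixed, with 5 of 24 high in ESCs, 5 in iPSCs and 3 in both: Plagl1 (14.1 and 4430 bp), Kcnq1 (9.67 and 5130 bp) and Gnas (9.27 and 4385 bp). Peg3 and Usp29 share a bin with 9.99 and 1910 bp. At the Dlk1 to Dio3 domain, which is often silenced in iPSC lines, Dlk1 and Rtl1 had no listed bin and no iPSC peak. Meg3, the maternally expressed RNA, starts in the bin chr12:109540001-109550000, which was not listed in ESCs and held 2 iPSC peaks over 943 bp. The bin before it had a value of 5.44 and no iPSC peak, and the next one upstream had the same value and 3 iPSC peaks over 870 bp. Rian had 2 listed bins without a value and Mirg none, and neither had an iPSC peak. Both lists thus hold signal around the start of Meg3, in bins that coincide only in part, and not at Rian or Mirg. Dio3, at the far end of the domain, had a value of 2.82 and 405 bp in the same bin. Igf2 and H19 had neither.

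**Figure D5:**
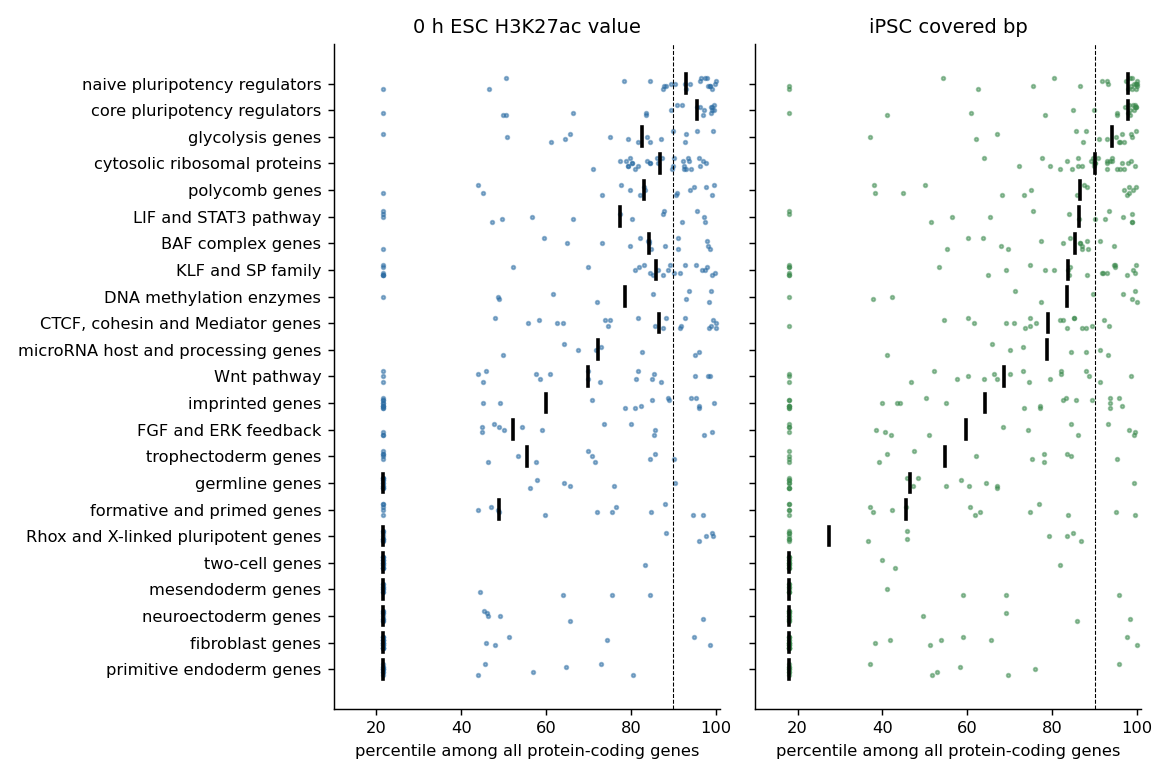
Percentile of each member of 23 gene lists among all protein-coding genes, for the 0 h ESC value (left, blue) and iPSC covered bp (right, green), with black bars at list medians and a dashed line at the limit for high genes. Core and naive pluripotency regulators have medians from 92.9 to 97.9, and the medians of the primitive endoderm, mesendoderm, neuroectoderm, fibroblast and two-cell lists sit at the ranks of genes without a value or peak.

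X-linked genes with both a value and a peak almost all ranked lower in iPSCs than in ESCs. Of 319 X-linked genes with a value and a peak, 308 (96.6%) had the lower percentile in iPSCs, against 51.8% of 11192 autosomal genes. Of 966 X-linked genes, 351 had a value and 398 a peak. Those with a peak and no value, such as Dusp9, Xlr3a and Rhox9, went the other way and ranked higher in iPSCs. Of the 966, 177 (18.3%) were high in ESCs and 27 (2.80%) in iPSCs, against 9.62% and 10.3% of autosomal genes. Stag2, a cohesin subunit, had an ESC value of 20.4 and only 1079 bp. Kdm6a, a histone demethylase, had 13.3 and 2103 bp, and Klf8 12.6 and 3187 bp. Zfx had 10.8 and 2490 bp, Rps4x 9.99 and 1952 bp, and Usp9x 9.94 and 2943 bp. The Rhox genes Rhox1, Rhox2a, Rhox4b, Rhox5 and Rhox6 had neither, and Rhox9 had 495 bp in iPSCs without a listed ESC bin. With chromosomes 1 to 19 alone, 1069 genes were high in both, 6 in ESCs without an iPSC peak and 21 in iPSCs without a value.

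The 9 genes high in ESCs without an iPSC peak were Ddx43, Kctd12b, Nlrp9a, Ces4a, Ms4a12, Cybb, Clec4a3, Olfr95 and Nhsl2, with values from 16.3 to 8.44. Kctd12b, Cybb and Nhsl2 are X-linked. For 6 of the 9 the run of equal value that reaches into the gene's window held an iPSC peak outside it. Ddx43, an RNA helicase gene, had its 16.3 from the run of Dppa5a, whose other bins were covered over 10000 and 9248 bp, and its own promoter bin had 3.22. The genes without an iPSC peak in the run either were Ms4a12 (9.19), Cybb (9.0), which encodes a phagocyte oxidase subunit, and Nhsl2 (8.44). Only Nhsl2 held KLF4 peaks, with 4. With each gene read only from bins that hold its start site, 20 genes were high in ESCs without an iPSC peak, and none of the 9 was among them. Single bins gave a similar picture. Of 201 decile 10 bins without an iPSC peak, 166 (82.6%) belonged to a run that had one, and 18 of the other 35 were on X. The highest values were 14.6 and 14.5 on X and 12.5 on chromosome 10, where the nearest genes, Pcdh11x, Tmem47 and Man1a, lay 29378, 190644 and 583384 bp away.

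Most valued bins without an iPSC peak lay close to one. Of the 7082, 60.1% were within 10 kb of an iPSC peak and 3.70% beyond 100 kb, and their median value was 3.42. Away from these classes, some autosomal genes with a high value had little iPSC coverage. Chosen after values were seen as those with the greatest drop in percentile, they were led by Keg1 (15.3 and 269 bp), Olfr1419 (10.1 and 178 bp), Caskin2 (10.4 and 257 bp) and Rnf122 (9.12 and 144 bp). The runs that gave these values held iPSC peaks, 3 at Keg1, 1 at Olfr1419, 12 at Caskin2 and 3 at Rnf122. In the other direction stood Zfp978 (3.94 and 6973 bp), Plet1 (4.10 and 5501 bp), a trophoblast and epithelial gene, and Zfp36l1 (3.71 and 3960 bp), an RNA decay factor gene.

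None of the 22 genes high in iPSCs without an ESC value had a listed ESC bin, so the class without a value but with listed bins was empty. What decides whether a bin is listed is not stated, and an unlisted bin was not shown to lack acetylation in ESCs. The 22 genes stood for 17 distinct loci. Read from start-site bins, the class held 40 genes, 9 of them among the 22. Mid1 (chrX:169685199-169990798), which encodes a ubiquitin ligase at the end of the X chromosome, had the longest coverage, 9797 bp in the bin chrX:170000001-170010000. It held 4 KLF4 peaks and lies past the end of the gene. The next were zinc-finger genes on chromosome 4: Zfp990 (7544 bp), Zfp980 (7479 bp), Rex2 (7419 bp), Zfp987 (6519 bp), Zfp534 (5836 bp) and Zfp988 (5057 bp). Gm3435, Gm3448 and Tcte3 on chromosome 17 shared 5067 bp, Gm3973 on chromosome 12 had 4862 bp and Zfp97 on chromosome 17 had 4792 bp. Rpl35, Arpc5l and Wdr38 on chromosome 2 shared 3864 bp.

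iPSC peaks outside the listed bins were often far from any valued ESC bin, and some were clustered. The 9410 such peaks had a median width of 377 bp, against 419 bp in valued bins, and lay at a median of 125908 bp from the nearest valued bin, with 55.6% beyond 100 kb. Of peaks over 3200 bp wide, 98.1% (97.1 to 98.8) met a valued bin. Unlisted stretches with 10 or more iPSC peaks numbered 146 and held 27.7% of the 9410 peaks. The richest was chr13:65280001-66870000 with 172 peaks over 87.6 kb, followed by chr12:18240001-20800000 with 90 and chr12:21510001-24510000 with 73. The stretch beside Rex2, chr4:146540001-147120000, held 46 peaks.

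Repeated sequence moved with these unlisted loci. Taking the 250 bases before each RefSeq start site, 11.1% (10.6 to 11.5) of 17915 windows in unlisted bins shared at least 1 stretch of 50 bases with a promoter elsewhere, against 1.12% (0.938 to 1.33) of 11492 windows in valued bins. Of windows with an iPSC peak on them, the shares were 10.9% (9.19 to 12.9) of 1142 unlisted and 0.762% (0.568 to 1.00) of 6695 valued. Of the 20 windows of genes high in iPSCs only, 12 shared such a stretch, against 19 of 1127 (1.69%) of genes high in both. In the printed windows of Rex2 and Zfp600, 97.0% and 92.5% of the 50-base words recurred elsewhere. Where a gene had several start sites, the window with most such words was printed. The other Zfp600 window, also with an iPSC peak on it, shared none. No word recurred at Rpl35, whose window had an iPSC peak on it, or in the Mid1 windows. The Mid1 windows lay in bins without an iPSC peak, away from the covered bin past the gene, whose sequence was not examined. How reads from repeated stretches were placed or filtered in either list is not stated, and its part in these genes was not tested. Only 125 of the 1142 unlisted windows with an iPSC peak held such a stretch.

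Promoters rich in CG were marked in both lists. With 0 to 4 CG in the 250 bases, 15.4% (14.8 to 16) of 14383 start sites lay in a valued ESC bin and 4.21% (3.88 to 4.55) of the windows had an iPSC peak on them. With 20 to 29 CG the shares were 64.2% (62.7 to 65.7) and 58.9% (57.3 to 60.4) of 3944. With 30 or more they were 60.6% and 58.3%. The median ESC value of the valued bins differed less, from 4.68 to 5.67. An iPSC peak lay on the window itself at 16.6% of start sites in the lowest decile of the ESC value and at 80.6% in the highest. The median CG count was 18 where a valued bin had an iPSC peak on the window and 8 where it had not, and KLF4 lay on 36.4% and 17.5% of these windows. Unlisted windows with an iPSC peak had a median of 19 CG, like the valued ones, and KLF4 lay on 36.3% of them.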

How the data were processed

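H3K27ac ChIP-seq of 2 ESC and 2 iPSC replicates was compared through 1 list per cell type that the authors deposited. The submitters' processing notes name Bowtie2, SAMtools, bedtools and MACS2 and the build mm10, without versions or roles; how replicates were combined, how values were scaled and what lists a bin are not given in the sources used here. Column 10 of the deposited ESC list was read as H3K27ac signal, where a value of 1e-300 or less means none; the deposited column 4 was treated as a score of unstated meaning. The deposited iPSC lists hold positions only, so covered bp, a breadth, stood beside the ESC value, a height, and both were compared by rank. The 24 h list was not used here, and results for some genes are not reported here.

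Peaks were assigned to each 10 kb bin they touch by 1 bp or more, with the grid taken over chromosomes 1 to 19 and X. Genes and sequences came from RefSeq GRCm38.p6, the primary assembly of mm10; promoter windows matched 17274 of the 21631 genes. Gene lists held 414 entries for 390 genes, of which 387 matched. The members and lists were chosen with earlier results of these data known. Named genes were the 10 highest loci per class, up to 4 list members by ESC value, list members past a class limit, 9 fixed pluripotency genes and the Dlk1 locus; X-linked examples, start-site windows, genes without either mark and printed promoters were chosen after values were seen. Alternatives varied the overlap, peak width, flanks, limits, summary per gene and chromosomes. Each number was computed with pandas 2.3.3 and scipy 1.17.1 in Python 3.11.15, and the assignment of peaks and ranks was tested on simulated data.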

Additional observations from a re-analysis of the deposited data

How the results depend on the processing

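With 1 list per cell type, replicates could not be left out. No paired analysis was possible because the lists hold no values per replicate, although the labels number the replicates A and B in both groups.

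The share of valued ESC bins with an iPSC peak (73.6%) became 70.6% by the centre of the peak, 57.5% with peaks of at least the median width, 89.2% in bins above the median value, 78.5% with peaks within 1 kb and 74.2% with 1 bin per run of equal value. The share of iPSC peaks in valued bins (81.5%) became 83.7% with wider peaks, 56.7% with bins above the median value, 82.1% within 1 kb and 81.9% on chromosomes 1 to 19. The rank correlation between value and covered length (0.611) became 0.664 with 1 bin per run, 0.578 in bins with a peak and 0.489 for the number of peaks. That between score and covered length (0.548) became 0.408 in valued bins and 0.257 as the median within deciles of the value. No correlation changed sign.

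Genes high in both numbered 412 at the top 5% and 2813 at the top 20%, against 1064, and 820 to 1508 under the other settings. Of the 1064, 399 were among the 948 by start-site bins and 674 among the 1508 by means over bins. Genes high in ESCs without an iPSC peak, 9, became 3 and 29 at those limits, 19 without flanks, 2 with 25 kb flanks, 2 with means over bins, 25 with wider peaks, and 3 where the run had to lack a peak too. By bins that hold a start site they became 20, and none of these was among the 9. This class depends on each of these choices. Genes high in iPSCs without a value, 22, became 11 and 70, 35 without flanks and 40 by start-site bins, of which 9 were shared. The start-site bins, the chromosome limit for genes and the run rule were chosen after seeing the data. Of 182 list medians under alternatives, 180 moved by less than the SD over members. That SD is a wide limit and no error of the median, and some medians sat at the shared rank of unmarked genes. Moves within it included the formative iPSC median, from percentile 45.6 to 22.2 without flanks. The trophectoderm iPSC median went from 54.8 to 35.4 without flanks, and the imprinted ESC median from 60.1 to 76.1 with 25 kb flanks. Beyond the SD, the trophectoderm ESC median fell to percentile 24.9 without flanks. The ribosomal ESC median was 94.5 with means over bins, above the iPSC median of 93.3, where the order had been the opposite.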
